A study of Rattus norvegicus with 12 samples.

Results

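The aryl hydrocarbon receptor genes described here are AHR, ARNT, AHRR, TIPARP, CYP1A1, CYP1A2 and CYP1B1, the receptor with its partner, its feedback genes and its classical target enzymes. They were chosen by identifier, 7 of the 20263 genes in the deposited tables. The identifiers are AHR ENSG00000106546, ARNT ENSG00000143437, AHRR ENSG00000063438, TIPARP ENSG00000163659, CYP1A1 ENSG00000140465, CYP1A2 ENSG00000140505 and CYP1B1 ENSG00000138061. No file links the identifiers to symbols, so the symbols are those of the selection list. All 20263 identifiers carry Ensembl's human prefix, while the labels give rat cells and genome build rn6. The files do not settle which species the measured genes belong to.

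RNA was measured by poly(A)-selected sequencing in H9C2 cells, a line from embryonic rat heart that the labels describe as wild-type cardiomyocytes, with 3 biological replicates in each of 4 groups and a treatment of 48 h. The groups used here all had 100 mM glucose: HG received nothing else, HG-Res received 5 µM resveratrol, a plant polyphenol, and HG-Res-SIRT7-Inh, called the SirReal2 group below, received 5 µM resveratrol with 5 µM SirReal2. The labels call SirReal2 a SIRT7 inhibitor, although it is best known as an inhibitor of SIRT2. No vehicle, osmotic control or inhibitor without resveratrol is described, so the inhibitor was seen on top of resveratrol only. The Ctrl group in 5.5 mM glucose is not analysed here, because none of the 7 identifiers is among the 354 rows of the table that holds its values.

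The aryl hydrocarbon receptor, AHR, is a transcription factor that waits in the cytoplasm with chaperones until a ligand such as a planar aromatic compound or a tryptophan metabolite binds it. It then enters the nucleus, pairs with ARNT and binds DNA at a short core sequence, GCGTG, near genes that include the CYP1 enzymes. AHRR competes with AHR for ARNT, and TIPARP adds ADP-ribose to AHR and shortens its action, so the receptor induces its own brakes. Resveratrol is known as an antagonist of this receptor.

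The rat promoters of the 3 genes with the lowest HG-Res levels relative to HG are shown. All 3 are known receptor targets, but they were picked by these levels, and the window of the classical target Cyp1a2 is not printed. Each is the 250 bases before a RefSeq start in build GRCr8, which is not the build named for the files, written 5′ to 3′ on the gene's strand with every GCGTG, or its reverse complement CACGC, in capitals. Ahrr lies at chr1:30821969-30822218 (+ strand), Tiparp at chr2:152063519-152063768 (+ strand) and Cyp1b1 at chr6:21094315-21094564 (+ strand).
Ahrr: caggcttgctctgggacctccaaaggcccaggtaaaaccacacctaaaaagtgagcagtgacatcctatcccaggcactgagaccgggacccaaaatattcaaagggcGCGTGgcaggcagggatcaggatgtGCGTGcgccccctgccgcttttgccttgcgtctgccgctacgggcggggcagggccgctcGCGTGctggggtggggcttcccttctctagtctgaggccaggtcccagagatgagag
Tiparp: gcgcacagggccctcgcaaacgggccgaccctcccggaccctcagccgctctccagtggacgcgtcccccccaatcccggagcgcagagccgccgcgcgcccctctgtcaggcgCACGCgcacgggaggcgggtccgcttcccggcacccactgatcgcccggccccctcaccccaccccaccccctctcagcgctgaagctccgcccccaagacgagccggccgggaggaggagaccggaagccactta
Cyp1b1: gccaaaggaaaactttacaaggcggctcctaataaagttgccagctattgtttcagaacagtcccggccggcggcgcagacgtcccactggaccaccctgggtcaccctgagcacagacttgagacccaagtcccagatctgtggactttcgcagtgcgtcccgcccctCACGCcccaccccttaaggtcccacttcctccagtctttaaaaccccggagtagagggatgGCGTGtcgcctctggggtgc
The core was found 3 times before Ahrr, with the match beginning 142, 117 and 57 bases before the start. It was found 2 times before Cyp1b1, at 81 and 20 bases, and 1 time before Tiparp, at 136 bases. The Arnt window held 1 match and the Ahr and Cyp1a2 windows held 0, so 4 of the 6 windows that were matched by symbol had the core. No window was found for Cyp1a1. Over all 33469 rat promoter windows of the same length, 25.9% had at least 1 match and 2.6% had 3 or more. These windows were not matched for base composition, so an excess of matches was not tested. G or C made up 62% of the Ahrr window, 74.8% of Tiparp, 59.2% of Cyp1b1, 57.6% of Arnt, 75.2% of Ahr and 44% of Cyp1a2. The longer form TNGCGTG, which contains the core, occurred 1 time each before Ahrr and Cyp1b1 and in 4.1% of all windows. The Cyp1b1 window precedes a start that lies inside the outer bounds of the gene model. A match is a description of these letters in the rat genome and not a measured binding site.

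The level of a gene is given in CPM, its counted reads on a scale on which each library has the same total. It is not scaled by gene length, so levels are compared between libraries and not between genes. Depth recovered from the spacing of low values was 30.29 to 33.18 M reads per library, and 1 read was worth about 0.03 CPM. Tests used limma on log2(CPM + 1) over 12854 genes, with Benjamini-Hochberg adjustment and a threshold of 0.05. All 9 libraries were in 1 fit. The limma standard errors and intervals therefore use 1 spread per gene, shared by the 3 groups, also where HG is not compared. Of the 7 genes, 6 passed the filter, which asked for 0.5 CPM or more in 3 or more of the 9 libraries. CYP1A1 passed on 6 libraries. Some libraries stood apart from their replicates over all tested genes. The median distance from the mean of the other replicates, on the log2 scale, was 0.194 in HG replicate 2, 0.291 in SirReal2 group replicate 1 and 0.373 in SirReal2 group replicate 3, against 0.057 to 0.145 in the other 6. For calls or signs that turned when 1 of these libraries was left out, the value without it is given beside the result.

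With resveratrol, the target enzyme CYP1B1 fell to 28.7% and the feedback repressor AHRR to 52.4% of their HG means. The feedback enzyme TIPARP was lower in every HG-Res library than in any HG library, at 57.3% of HG, without passing the test. Of all tested genes, 14.8% were separated in this direction. The receptor AHR and its partner ARNT were at 111.3% and 97.6% of their HG means, and neither difference passed. With limma, 2 of the 6 tested genes passed against HG, both lower, where 0.381% of all 12854 genes passed as lower. At an unadjusted p under 0.05 the number was 3, where 10.7% of all tested genes passed. By the q-values in the authors' deposited table it was 3 as well, all lower, where 3.8% of the tested genes were called lower. The median log2 change was -0.46 over the 6 genes and -0.001 over all tested genes. In these bulk samples, fewer cells of a type and less RNA per cell cannot be told apart.

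**Figure D1:**
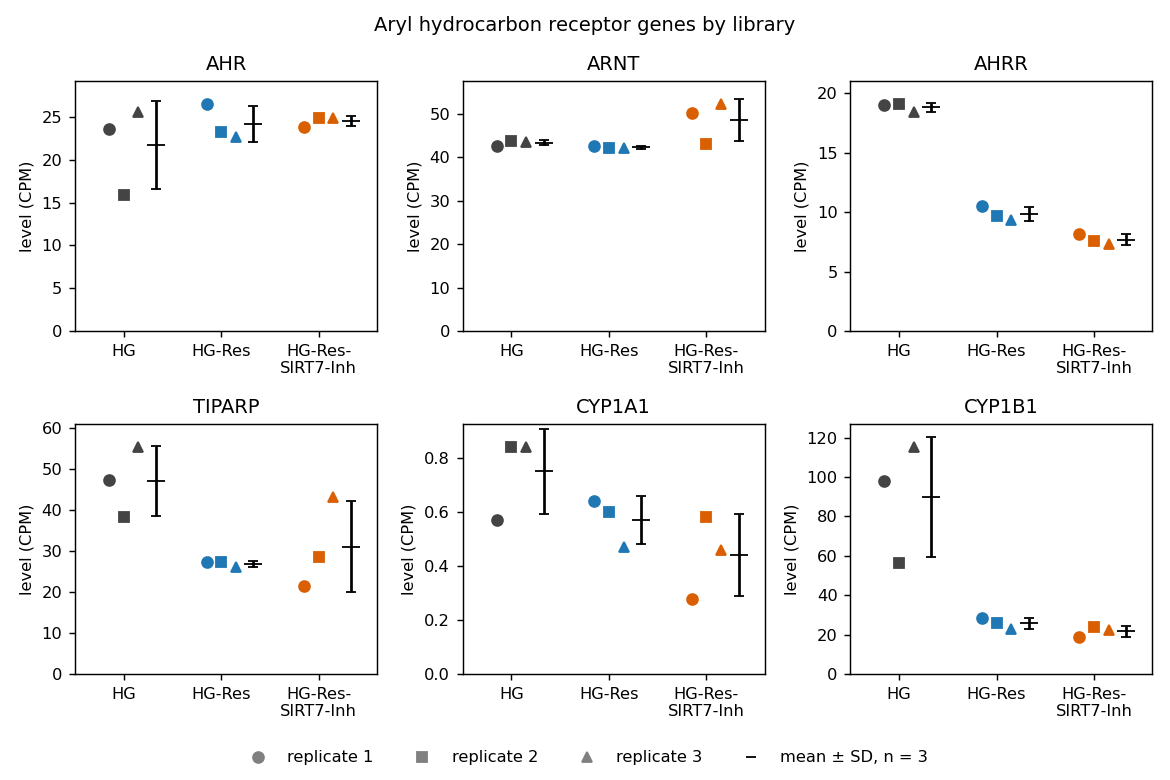
Levels in CPM of the 6 genes detected, 1 panel per gene with its own axis from 0. Symbols are the 9 libraries by group, and the bar beside each group is the mean ± SD (n = 3). All HG-Res values of AHRR, TIPARP and CYP1B1 lie below all HG values, those of ARNT do so by a narrow margin, and those of AHR and CYP1A1 overlap with HG. Of all tested genes, 14.8% were separated in this direction.

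AHR itself stood at 23.64, 15.86 and 25.56 CPM in HG replicates 1, 2 and 3. It was at 26.53, 23.18 and 22.69 CPM in HG-Res and at 23.79, 24.85 and 24.83 CPM in the SirReal2 group. The groups overlapped, and the low value was that of HG replicate 2, at 64.5% of the mean of the other HG libraries. The log2 change of AHR with resveratrol was 0.17 ± 0.16 (SE, limma adjusted p = 0.804), with a 95% interval from -0.19 to 0.54. Without HG replicate 2 it was -0.03 (limma adjusted p = 0.918), so the sign of this difference turned when that library was left out. Against HG the change in the SirReal2 group was 0.20 ± 0.16 (SE, limma adjusted p = 0.452), and -0.01 without HG replicate 2.

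ARNT, the partner that AHR shares with other factors of its family, was the steadiest of these genes in HG and HG-Res. Its level was 42.7, 43.72 and 43.62 CPM in HG and 42.65, 42.18 and 42.09 CPM in HG-Res. The groups just failed to overlap, as they did in 29.9% of all tested genes, and the log2 change of -0.03 ± 0.10 did not pass (SE, limma adjusted p = 0.962). In HG-Res-SIRT7-Inh ARNT was at 50.22, 43.15 and 52.33 CPM, each above the HG-Res libraries. Such a separation from HG-Res, in either direction, was seen in 33.7% of all tested genes. The ARNT log2 difference of 0.19 ± 0.10 from HG-Res did not pass either (SE, limma adjusted p = 0.263). Its 95% interval ran from -0.04 to 0.42.

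AHRR, the repressor that receptor activity induces, had the smallest standard error of the 6 tested genes. It was at 18.96, 19.09 and 18.39 CPM in HG, at 10.5, 9.71 and 9.34 CPM in HG-Res and at 8.17, 7.61 and 7.3 CPM in the SirReal2 group. The 3 groups were fully separated. Of all tested genes, 14.8% had HG-Res below HG without overlap, and 33.7% had the SirReal2 group and HG-Res separated in either direction. HG replicate 2 was not low for AHRR, at 102.2% of the other HG libraries. AHRR fell to 52.4% of its HG mean with resveratrol, by -0.87 ± 0.09 on the log2 scale (SE, limma adjusted p = 0.00347). Of the 12854 tested genes, 16 had a lower change. The call held in each of the 17 alternatives, with adjusted p-values from 9.32e-19, in the authors' deposited table, to 0.0371. In human genomes a readthrough transcript joins PDCD6 to AHRR, and the sources used here do not say how such reads were assigned.

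TIPARP, the enzyme that ADP-ribosylates AHR, was at 47.35, 38.41 and 55.45 CPM in HG and at 27.48, 27.29 and 26.14 CPM in HG-Res. All HG-Res libraries lay below all HG libraries, the highest of them at 71.5% of the lowest HG value. The group mean was 57.3% of HG, with a log2 difference of -0.77 ± 0.22 that did not pass (SE, limma adjusted p = 0.217). Of the tested genes, 27 had a lower log2 change. The groups were separated with HG-Res the lower in 14.8% of all tested genes.

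Whether TIPARP passed in HG-Res against HG depended on the fit. SirReal2 group replicate 3 was the only library whose omission alone made it pass. That library is not in this comparison and enters through the spread shared by the 3 groups. In the SirReal2 group TIPARP was at 21.48, 28.73 and 43.21 CPM. Replicate 3, the library farthest from its replicates over all genes, was at 172.1% of the mean of the other replicates. Without that library the same resveratrol difference of -0.77 passed (limma adjusted p = 0.0236), and it passed with only HG and HG-Res in the fit (limma adjusted p = 0.0288). With HG replicate 2 left out as well the change was -0.90 (limma adjusted p = 0.00271), and the authors' deposited table gave -0.79 with a q-value of 1.47e-06. In the other 13 alternatives the difference had the same direction and did not pass.

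CYP1B1, an enzyme that oxidises steroids, retinoids and polycyclic compounds and is the CYP1 member best known from mesenchymal tissues, had the largest change of the 7 genes. It was at 97.81, 56.35 and 115.21 CPM in HG and at 28.37, 25.83 and 23.22 CPM in HG-Res. The highest HG-Res library was at 50.3% of the lowest HG library, so the groups stood well apart although the HG values themselves varied (coefficient of variation 33.7%). Groups were separated with HG-Res the lower in 14.8% of all tested genes. CYP1B1 fell to 28.7% of its HG mean, by -1.70 ± 0.23 on the log2 scale (SE, limma adjusted p = 0.0125). Of the 12854 tested genes, 2 had a lower change.

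The HG spread of CYP1B1 came from replicate 2, at 52.9% of the mean of replicates 1 and 3, the library in which AHR and TIPARP were also lowest. Against replicates 1 and 3 alone, the HG-Res mean of CYP1B1 was 24.2%. The call was lost with no filter (limma adjusted p = 0.053), and without HG replicate 1, HG-Res replicate 1, HG-Res replicate 2 or HG-Res replicate 3 (limma adjusted p = 0.0867, 0.0659, 0.0822 and 0.0904). Across these 5 fits the log2 change lay between -1.77 and -1.61. The authors' deposited table gave a log2 fold change of -1.78 with a q-value of 1.83e-13.

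CYP1A1, the enzyme usually taken as the most sensitive readout of receptor activation, was close to the detection limit. It was at 0.57, 0.84 and 0.84 CPM in HG, at 0.64, 0.6 and 0.47 CPM in HG-Res and at 0.28, 0.58 and 0.46 CPM in the SirReal2 group. These values stand for about 9 to 28 reads per library. The lowest, 0.28 CPM, has an exact Poisson 95% interval of 0.129 to 0.535 CPM, and the highest with the most reads, 0.84 CPM in HG replicate 2, one of 0.561 to 1.22 CPM, both for counting error only. The groups overlapped, and the HG-Res mean was 76% of the HG mean, with a log2 difference of -0.15 ± 0.11 (SE, limma adjusted p = 0.73). The added 1 CPM shrinks differences at this level, and the authors' deposited table gave a log2 fold change of -0.39 (q-value 0.638). Neither test called a difference in CYP1A1.

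CYP1A2, the liver enzyme that metabolises caffeine, was listed at 0 in all 9 libraries and was not tested. Taking 3 reads as the limit that a count of 0 allows, a one-sided floor unlike the two-sided interval above, gives 0.0904 to 0.099 CPM depending on the library. CYP1A1 and CYP1A2 are similar neighbours, and the sources used here do not say how reads matching both were counted.

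**Figure D2:**
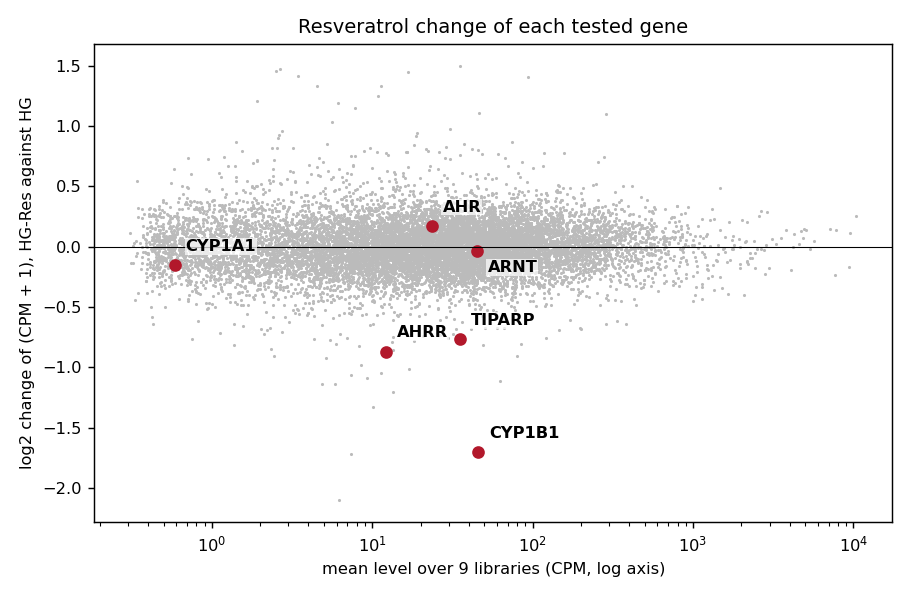
Log2 change of (CPM + 1) in HG-Res against HG for the 12854 tested genes (grey) over their mean level in CPM on a log axis, with the 6 tested receptor genes in red. CYP1B1 at -1.70, AHRR at -0.87 and TIPARP at -0.77 lie at the lower edge, and AHR and ARNT lie within the bulk of the genes.

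Adding SirReal2 to resveratrol did not bring any of these genes past the test. With limma, 0 of the 6 tested genes passed between the SirReal2 group and HG-Res, where 6.07% of all tested genes did. At an unadjusted p under 0.05 the number was 1, AHRR, where 24.6% of all tested genes passed, and by the q-values in the authors' deposited table it was 0, where 8.69% of the tested genes passed. The median log2 change was -0.05 over the 6 genes and 0.04 over all tested genes.

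AHRR was lower still with the inhibitor, at 78.1% of its HG-Res mean and with all 3 libraries below all HG-Res libraries, a separation of groups, in either direction, that 33.7% of all tested genes showed. Its log2 difference was -0.32 ± 0.09 (SE, limma adjusted p = 0.0765). It passed with no filter (limma adjusted p = 0.0402), without replicate 1 of the SirReal2 group (0.0471) and when its replicate 3 and HG replicate 2 were both left out (0.0358), and the range over all 17 alternatives was 0.0358 to 0.254.

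CYP1B1 was at 18.85, 24.18 and 22.51 CPM with the inhibitor, overlapping with HG-Res at 84.7% of its mean. The log2 difference was -0.23 ± 0.23 (SE, limma adjusted p = 0.517), with a 95% interval from -0.75 to 0.29. Both rest on a spread shared with HG, where CYP1B1 varied most. Its coefficient of variation was 33.7% in HG, 10% in HG-Res and 12.5% with the inhibitor. A return of CYP1B1 to its HG level would be a rise as large as its resveratrol change of -1.70, which lies outside that interval. For TIPARP the difference was 0.15 ± 0.22 (SE, limma adjusted p = 0.677) with a 95% interval from -0.36 to 0.65. Without SirReal2 group replicate 3 the difference was -0.11, and without replicate 1 of that group it was 0.38 (limma adjusted p = 0.17), so its sign rested on single libraries. Without replicate 1 the CYP1B1 difference was -0.14 and that of CYP1A1, which follows, was -0.05. CYP1A1 differed by -0.13 ± 0.11 (SE, limma adjusted p = 0.466) and AHR by 0.02 ± 0.16 (SE, limma adjusted p = 0.932).

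**Figure D3:**
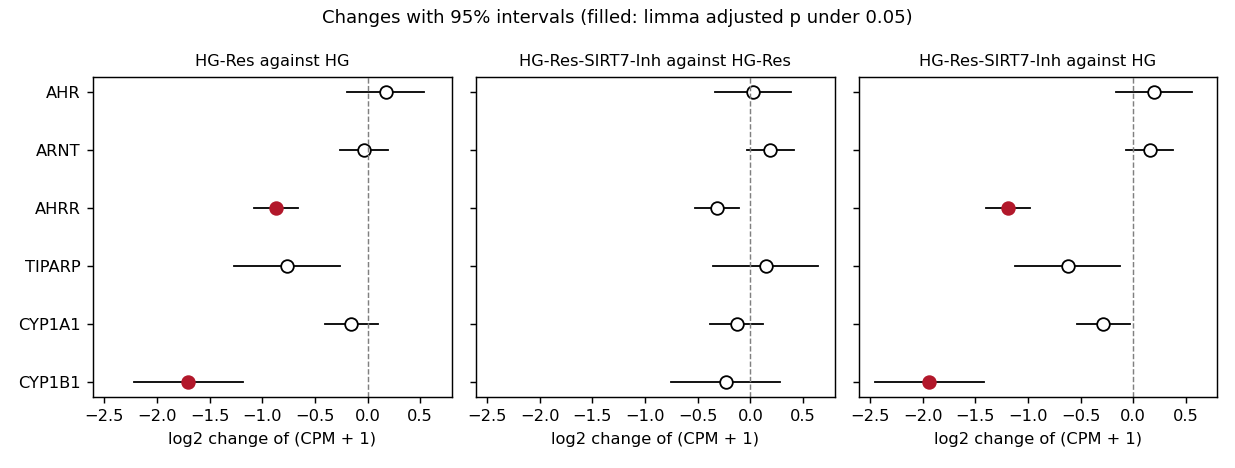
Log2 change of (CPM + 1) of 6 receptor genes in the 3 comparisons, with limma 95% intervals as lines and filled points where the adjusted p was under 0.05. AHRR and CYP1B1 are filled in both comparisons with HG, and no point is filled for the inhibitor added to resveratrol.

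Against HG alone, cells given both compounds had lower AHRR and CYP1B1. In limma 2 of the 6 tested genes passed, both lower, where 6.5% of all tested genes passed as lower. This comparison shares the HG libraries with the resveratrol comparison and is not a second measurement of HG. AHRR fell to 40.9% of its HG mean, by -1.19 ± 0.09 on the log2 scale (SE, limma adjusted p = 9.12e-05). CYP1B1 fell to 24.3%, by -1.94 ± 0.23 (SE, limma adjusted p = 0.000923). Both calls held in each of the 17 alternatives, with adjusted p-values up to 0.0031 for AHRR and 0.00907 for CYP1B1.

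TIPARP was at 66.2% of HG with both compounds, and its groups overlapped because SirReal2 group replicate 3, at 43.21 CPM, exceeded HG replicate 2. The log2 difference of -0.62 ± 0.22 did not pass (SE, limma adjusted p = 0.107). Without SirReal2 group replicate 3 it was -0.88 and passed (limma adjusted p = 0.00732), and without replicate 1 of that group it was -0.39 (limma adjusted p = 0.167). CYP1A1 was at 58.7% of HG, a log2 difference of -0.28 ± 0.11 that did not pass (SE, limma adjusted p = 0.14), and ARNT differed by 0.16 ± 0.10 (SE, limma adjusted p = 0.333).

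Because AHR, TIPARP and CYP1B1 were all lowest among HG libraries in replicate 2, levels were also set against AHR of the same library, a measure chosen after these values were seen. CYP1B1 per AHR was 4.14, 3.55 and 4.51 in HG, 1.07, 1.11 and 1.02 in HG-Res and 0.792, 0.973 and 0.907 in the SirReal2 group. None of the HG values overlapped with the treated libraries. They were closer to each other than the levels themselves, which follows from dividing by a gene chosen for being low in the same library. TIPARP per AHR was 2.00, 2.42 and 2.17 in HG, 1.04, 1.18 and 1.15 in HG-Res and 0.903, 1.16 and 1.74 in the SirReal2 group. On this scale all SirReal2 group libraries of TIPARP lay below HG too, while their levels in CPM overlapped with HG. Dividing by AHR, which was low in HG replicate 2, turned the lowest HG level of TIPARP (38.41 CPM) into its highest HG ratio. The separation on this scale therefore rests on the choice of divisor. How many of all tested genes separate after division by AHR was not computed.

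AHRR per AHR did not gain from the division, since AHRR was not low in HG replicate 2. It was 0.802, 1.20 and 0.719 in HG, 0.396, 0.419 and 0.412 in HG-Res and 0.343, 0.306 and 0.294 in the SirReal2 group. The log2 difference of the ratio to AHR between HG-Res and HG was -1.92 ± 0.11 for CYP1B1, -0.97 ± 0.10 for TIPARP and -1.12 ± 0.23 for AHRR (SE, n = 3 per group). Each had a two-sided exact permutation p of 0.1, the smallest that 3 against 3 libraries can give, and 0.15 after adjustment over the 18 ratio tests. AHR was picked as divisor from the same values, so these standard errors and p-values are not further support for the differences.

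**Figure D4:**
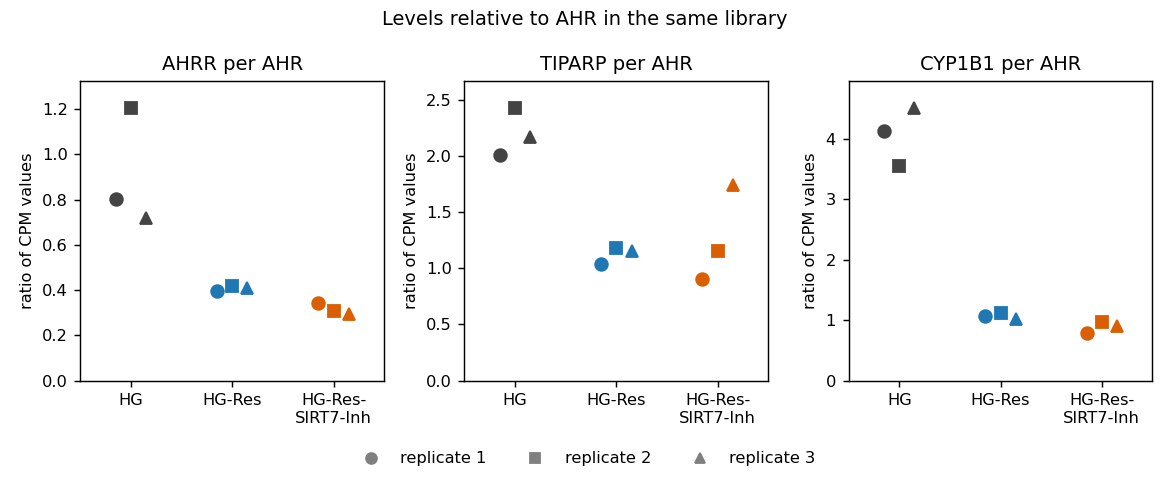
Ratio of the CPM value of AHRR, TIPARP and CYP1B1 to that of AHR in the same library, with axes from 0 and 1 symbol per library. HG libraries lie above all HG-Res libraries in each panel, with CYP1B1 per AHR between 3.55 and 4.51 in HG and between 1.02 and 1.11 in HG-Res. The genes shown were already separated in this direction on undivided levels, as were 14.8% of all tested genes. AHR was picked as divisor from the same values, and the share of all tested genes separated after this division was not computed.

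The sizes of the differences were compared among AHRR, TIPARP and CYP1B1, the members with the lowest HG-Res levels relative to HG. They were picked by these same values, so the separations and p-values of their ratios are descriptive and not further support. How often other pairs of tested genes separate in this way was not computed. CYP1B1 per AHRR was 5.16, 2.95 and 6.26 in HG and 2.70, 2.66 and 2.49 in HG-Res, which do not overlap, with a log2 difference of -0.81 ± 0.33 (SE, two-sided exact permutation p = 0.1, 0.15 after adjustment). With both compounds it was 2.31, 3.18 and 3.08, overlapping with HG, at -0.69 ± 0.36 (SE, two-sided exact permutation p = 0.3, 0.36 after adjustment). The low HG value was again that of replicate 2. CYP1B1 per TIPARP was 2.07, 1.47 and 2.08 in HG and 1.03, 0.947 and 0.888 in HG-Res, lower in every HG-Res library than in any HG library. The log2 difference of this ratio was -0.95 ± 0.18 (SE, two-sided exact permutation p = 0.1, 0.15 after adjustment). AHRR per TIPARP was 0.4, 0.497 and 0.332 in HG and 0.382, 0.356 and 0.357 in HG-Res. These overlapped, with a log2 difference of -0.15 ± 0.17 (SE, two-sided exact permutation p = 0.6, 0.635 after adjustment). With the inhibitor AHRR per TIPARP was 0.38, 0.265 and 0.169, the lowest again in SirReal2 group replicate 3.

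The genes closest in pattern to AHRR and CYP1B1, the members that passed the test, were sought among 11991 others with a mean of at least 1 CPM. Likeness was the root mean square difference over the 9 libraries of log2(CPM + 1), each gene taken from its own HG mean. The closest to AHRR was ENSG00000011465 at a difference of 0.116, with 12.7 ± 0.655 CPM in HG, 6.75 ± 0.48 in HG-Res and 5.24 ± 0.324 in the SirReal2 group (SD, n = 3). The next neighbours of AHRR were at 0.124 and 0.137. The closest to CYP1B1 was ENSG00000133110 at 0.443, with 10.5 ± 2.97, 4.14 ± 0.792 and 2.99 ± 0.528 CPM (SD, n = 3), and the next were at 0.448 and 0.481. The distance grows with the size of a change, so the neighbours of AHRR and of CYP1B1 are not on a like scale.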

How the data were processed

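RNA from 9 high-glucose libraries, in 3 groups of 3 taken from the sample titles, was analysed from 3 full tables. Per the submitters' processing notes, reads were trimmed with Trimmomatic, with rn6 as the build. The sources used here do not give the aligner, counter, annotation or the authors' test. The value columns deposited by the authors are headed TPM but hold CPM, since each library has the same total and low values of all genes are multiples of 1 step, within the rounding of 0.005 CPM. Reads inferred from that step were approximate, so no count model was run. Each deposited table also holds the authors' log2 fold change, p-value and q-value.

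limma 3.58.1 in R 4.3.3 was fitted to log2(CPM + 1), with group means, an intensity trend and no further scaling, over the 12854 genes that reached 0.5 CPM in 3 or more of the 9 libraries. Adjusted p-values are Benjamini-Hochberg values over all of these genes. P-values measure the spread between samples labelled biological replicates. The fit was tested on simulated data. The members and lists were chosen with earlier results of these data known. All members were described, and nearest patterns were sought for members past the threshold. The pathway and cell-marker lists, written by symbol, were not used here, since 0 of the identifiers matched the rat gene table, so the labelled cell type was not checked. Promoters are from RefSeq (GRCr8). Alternatives changed the pseudocount, filter, scaling, libraries, replicate block and test.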

Additional observations from a re-analysis of the deposited data

How the results depend on the processing

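The numbers of these genes past the threshold were recomputed under 17 alternatives. For HG-Res against HG (2 genes) the number was 1 with no filter and 1 to 3 when 1 library was left out. When SirReal2 was added to resveratrol (0 genes) it was 1 with no filter, 1 when HG replicate 2 and replicate 3 of the SirReal2 group were both left out, and 0 to 1 when 1 library was left out. For both compounds against HG (2 genes) it was 2 to 3. AHRR held its calls against HG in each alternative run. With the replicate number as a block the numbers were 2, 0 and 2, and the block changed no call of a named gene. Of the 9 same-numbered pairs of libraries, 4 had deviations correlated over 0.1 across genes (range -0.55 to 0.64). HG replicate 2 correlated best with replicate 1 of the SirReal2 group (0.78). The deviations were taken from each group's own mean and so depend on one another. They cannot settle whether same-numbered libraries were paired. Over all genes the calls ranged from 19 to 2722 for the first comparison (91), from 276 to 2412 for the second (780) and from 420 to 3991 for the last (1385). voom and edgeR were not run, because whole reads could not be recovered with certainty. No alternative with a filter of 1 CPM gave a value for CYP1A1, and depth limits that gene and CYP1A2.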
